A study of Mus musculus with 3 samples.

Results

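The panel described here is the set of 71 DNA-tagged antibodies against leukocyte surface proteins that were counted together with the transcripts of single cells from the mouse aorta (CITE-seq). Its members are all antibody rows of the count table apart from 10 hashtag antibodies, which mark the mouse of origin, and 4 isotype controls, which bind no mouse protein by design and measure nonspecific binding, so that 71 of 85 antibody rows were taken. The cells were aortic CD45+ leukocytes of 5 Jak2WT mice (mice 1 to 5, numbered by hashtag) and 5 Jak2V617F Myel mice, labelled Jak2V617F MyC by the submitters, in which a Flex Jak2V617F allele is switched on by LysM-Cre, a Cre active in myeloid cells. Mice 6, 8 and 10 had aortic dilation and mice 7 and 9 had an aortic aneurysm. The mice were males and females on the C57BL/6 background, the controls were littermates, and the age of these animals is not given in the sources used here. Blood leukocytes were labelled by an intravenous CD45.2 antibody and left out of the sort, cells were released by enzymes, Fc receptors were blocked with anti-CD16/32, and each mouse was stained in its own well before all 10 were pooled into a single Chromium run. The fluorochrome of a second CD45.2 antibody differed between the wells of the genotypes, and its effect on the panel cannot be told apart from genotype.

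An antibody tag reports protein on the outside of the cell, after translation, transport to the membrane, internalisation and shedding, whereas a transcript is counted inside the cell. Surface proteins of leukocytes are classed by role: antigen and Fc receptors, scavenger receptors and lectins of macrophages, integrins and other adhesion molecules, costimulatory molecules and chemokine receptors. In the arterial wall, resident macrophages carry the scavenger receptor CD163 and the phosphatidylserine receptor TIM4, and dendritic cells carry MHC class II. T, B, NK, mast cells and group 2 innate lymphoid cells (ILC2) each carry their own receptors.

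Of 8471 barcodes, 5857 carried a single hashtag and 4871 were kept, with 112 to 811 cells per mouse. Cells had a median of 8517 transcript UMIs (unique molecular identifiers, each counting a molecule once; mouse medians 5441.5 to 10775) and a median of 935 antibody counts (mouse medians 536.5 to 1155.5), for 6244450 panel counts and 2883 isotype counts in all. Types were gated on transcripts alone: clusters were made without the genes that the panel targets and were named from marker lists that hold none of them, and each name used here means cells like that type by transcript. The gate gave 1763 macrophages, 561 B cells, 405 T cells, 392 type 2 conventional dendritic cells (cDC2), 242 ILC2, 208 myeloid cells marked by Saa3, 203 CD4 CD8 double-positive thymocytes by their Rag1, Rag2, Arpp21, Dntt and Cd8b1 transcripts, 154 gd T cells of the IL-17 type, 111 neutrophils, 84 cDC1, 76 NK cells and 65 mast cells. Values are counts per cell, which are the total of a type in a mouse over its number of cells, given as mean ± SD over mice with at least 10 cells of the type, and transcripts are in CPM, the share of a gene among all transcript UMIs scaled to 1000000. Intervals and limits of shares cover counting error only.

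Most of the panel gave more counts than the isotype controls in at least 1 type. Of 71 antibodies 70 had counts, and 59 exceeded each of the 4 isotype controls in every mouse in at least 1 of the 12 types, of which 16 did so in all 12 (CD11b, I-A/I-E, CD54, Ly6C, CD49d, CD9, CD163, SIRPa, CD44, CD43, PIR-A/B, CD304, CD14, CD55, CD39 and CD24). The rat IgG2a control had no counts in any of the 12 types, so only the other controls set this bar. The bar was low and does not by itself show specific binding: NK1.1 passed it in 10 types, and TIM4 and CD5 in 11. The summed isotype counts per cell ranged from 0.0969 in NK cells to 0.799 ± 0.279 in macrophages (SD, n = 10) and 2.10 ± 0.43 in Saa3 myeloid cells (SD, n = 3), so nonspecific binding was not equal between types. Macrophages were the highest type for 11 of the 59, cDC1 for 10, Saa3 myeloid and mast cells for 9 each, neutrophils and gd T cells for 4 each, T cells and cDC2 for 3 each, and thymocytes, B and NK cells for 2 each.

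**Figure D1:**
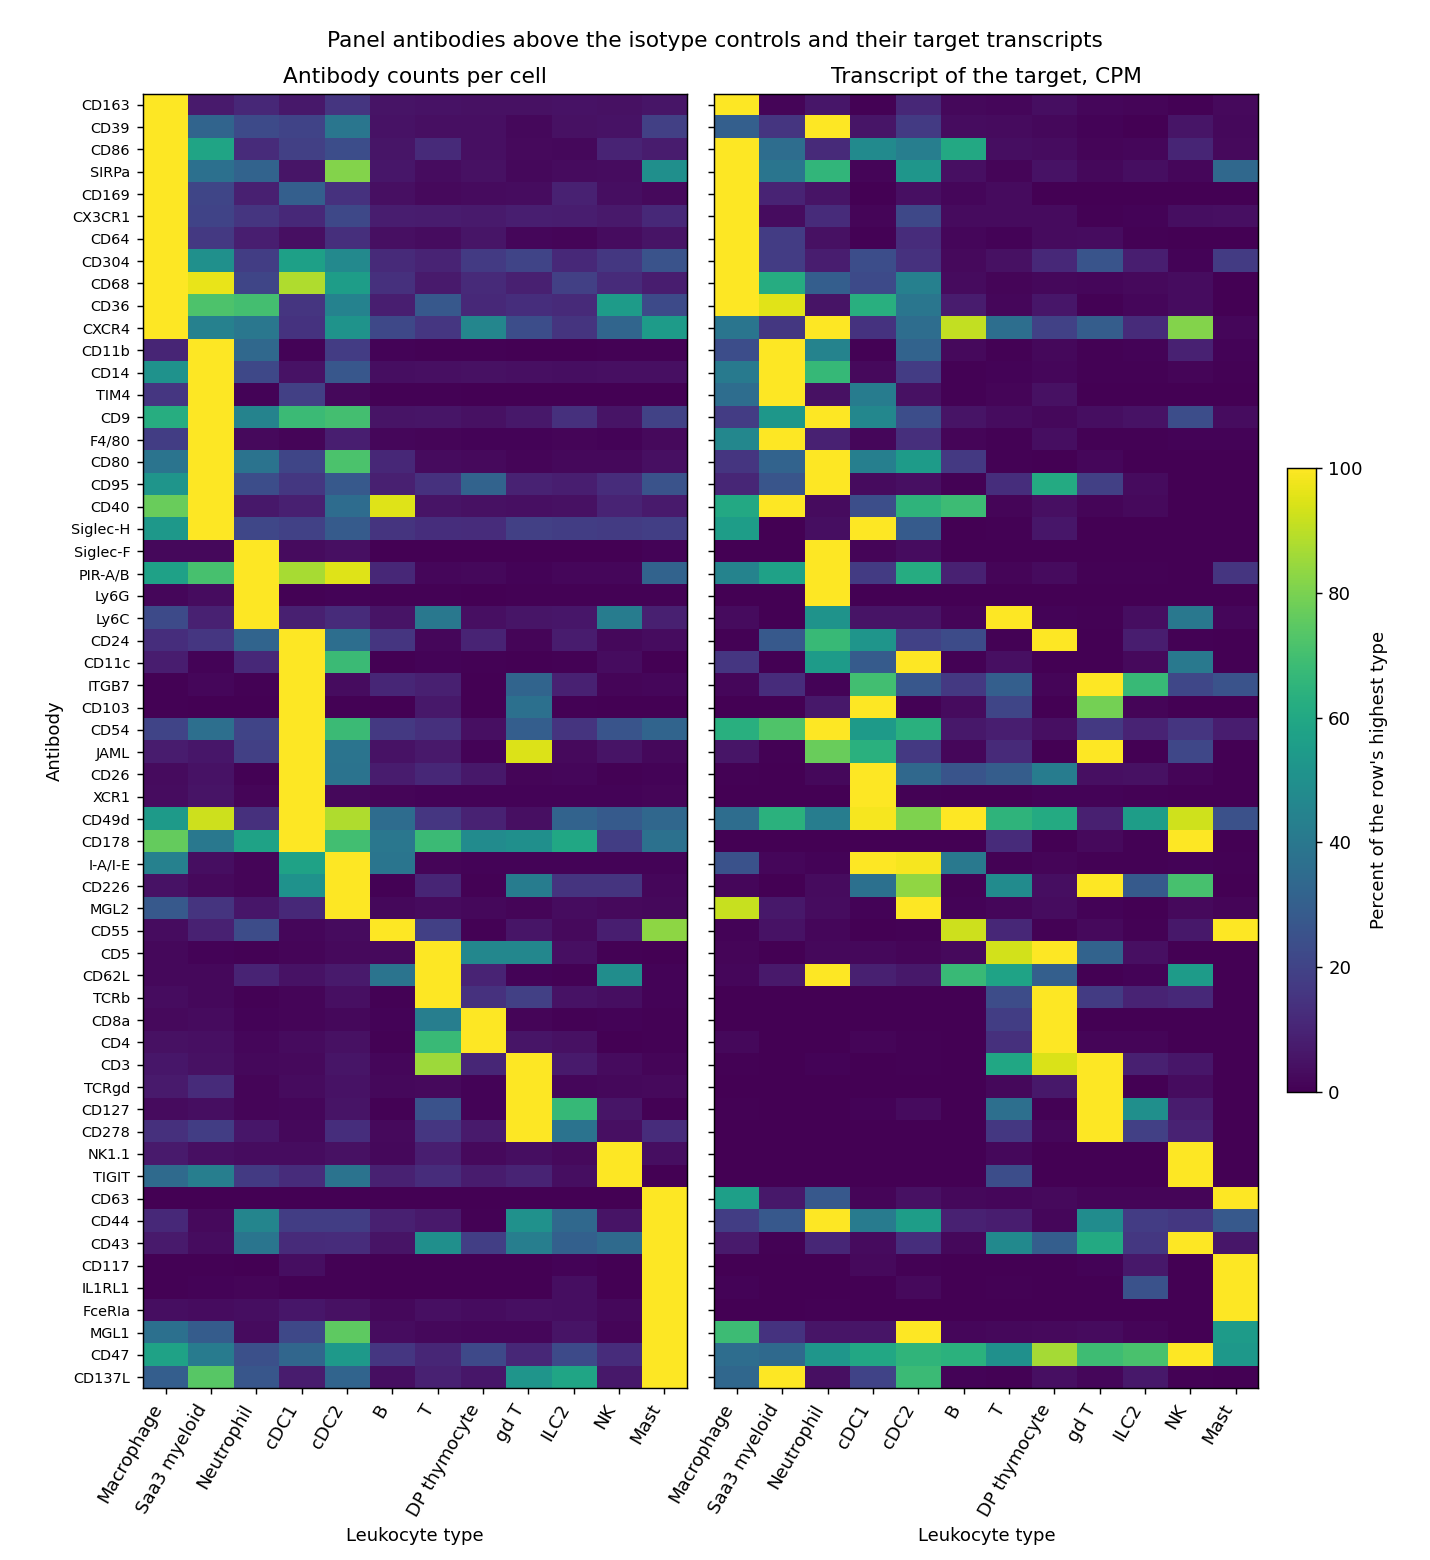
Antibody counts per cell (left) and transcript CPM of the target (right) of the antibodies above the isotype controls that are reported here, with antibodies in rows, 12 leukocyte types in columns and each row as a percent of its highest type (mean over mice). Most rows have a narrow bright field on both sides, while rows such as CD47 and CD178 differ between the sides.

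Of 33 antibodies that were given a usual leukocyte type with a cluster, 26 were highest in that type. The list of usual types was written with earlier results of these data known. It counts Saa3 myeloid cells as a usual type for F4/80, CD64, MSR1, CD115 and CD14, and all of these but CD64 were highest there. Of these 26, CD115, MSR1 and CD135 exceeded the isotype controls in every mouse in no type, as did CD21/35 and CXCR5 among the others. Their order of types was thus not separated from background counts by this bar. Averages could still lie higher: CD21/35 gave 0.373 counts per B cell, against 0.0985 for the hamster and 0.0787 for the rat IgG1 control. Siglec-H, an antibody to a plasmacytoid dendritic cell receptor, could not be judged because no such cluster was found. The 7 others were TIM4 and the B cell antibodies CD21/35 and CXCR5, all highest in Saa3 myeloid cells, CD4 and CD8a, highest in double-positive thymocytes, MGL1, highest in mast cells, and CD24, highest in cDC1.

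The most abundant macrophage antibody was CD163, a scavenger receptor for haptoglobin-haemoglobin complexes (Cd163, chr6:124304656-124330527, + strand, mm10). It gave 535 ± 180 counts per macrophage (SD, n = 10), but also 23.6 to 30.4 in lymphoid and mast cells, a level that lies far above the isotype controls in cells of another lineage. CD39, an ectonucleotidase that degrades extracellular ATP, gave 144.5 ± 23.8, CD86, a costimulatory ligand, 29.3 ± 5.6, and SIRPa, the receptor for CD47, 21.5 ± 2.2 counts per macrophage. CD169, a sialic acid binding receptor, gave 5.56 ± 1.72, the fractalkine receptor CX3CR1 5.37 ± 1.62, the high-affinity IgG receptor CD64 4.11 ± 0.97, and CD304 (neuropilin-1) 4.01 ± 0.84. CD68, a mostly lysosomal protein, gave 2.06 ± 0.44 in macrophages and 1.99 ± 0.92 in Saa3 myeloid cells, levels within their spread. CD36, a fatty acid receptor, gave 0.640 ± 0.152, and the chemokine receptor CXCR4 gave 0.545.

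Saa3 myeloid cells, found with at least 10 cells in mice 5, 8 and 10, held the largest CD11b counts. CD11b, the alpha chain of the integrin Mac-1, gave 1918, 1751 and 2347 counts per cell in these mice. CD14, the co-receptor for lipopolysaccharide, gave 178, 188 and 231, against 7.58 to 9.57 in lymphocytes, mast cells and cDC1. F4/80, an adhesion receptor used to gate macrophages, gave 18.0 ± 9.9 in Saa3 myeloid cells and 3.30 ± 0.87 in macrophages. TIM4, a phosphatidylserine receptor of resident macrophages (Timd4, chr11:46810800-46844332, + strand), gave 162, 104 and 247 with Timd4 at 323, 286 and 311 CPM. The tetraspanin CD9 gave 37.7 ± 5.7, the costimulatory ligand CD80 5.90 ± 1.94, the death receptor CD95 4.78 and the costimulatory receptor CD40 3.01 counts per cell. These cells also had the highest isotype counts of all types, and the part of nonspecific binding in these levels was not tested.

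Mast cells, with at least 10 cells in mice 5, 6, 7 and 10, carried the largest count of the tetraspanin CD63, a granule membrane protein. CD63 gave 248, 1183, 2187 and 2698 counts per mast cell in these mice, while the next type, macrophages, had 5.92. Cd63 (chr10:128900989-128912822, + strand) was at 1131 ± 213 CPM in mast cells and 637 CPM in macrophages, so the antibody differed far more between these types than the transcript. CD117, the receptor for stem cell factor, gave 74.7, 180, 167 and 148 (Kit 2126 CPM). FceRIa, the alpha chain of the high-affinity IgE receptor, gave 13.2, 18.7, 41.2 and 19.8 (Fcer1a 1993 CPM). IL1RL1, the IL-33 receptor, gave 34.4, 27.8, 31.8 and 28.0 (Il1rl1 3290 CPM). ILC2, the other type with the IL-33 receptor, had 1.08 ± 0.27 IL1RL1 counts per cell and 826 CPM of Il1rl1. CD44, the hyaluronan receptor, and CD43, a sialomucin, were also highest in mast cells, at 262 and 249 counts per cell, as were CD47 at 2.92 and CD137L at 1.87. MGL1, a galactose-binding lectin of macrophages, gave 8.22 ± 4.03 counts per mast cell (SD, n = 4), with Clec10a at 175 CPM.

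Neutrophils reached 10 cells in mice 3, 7 and 9 only. Ly6G, the antigen used to identify mouse neutrophils, gave 52.5, 33.9 and 42 counts per cell with Ly6g at 169, 422 and 70.2 CPM, and Ly6g was at 0 CPM in every other type. Siglec-F, a sialic acid binding receptor best known on eosinophils (Siglecf, chr7:43351341-43359531, + strand), gave 4.15, 19.0 and 231 in the same mice, with Siglecf at 28.2, 24.1 and 304 CPM. Mouse 9, with an aneurysm, was thus high for both the protein and the transcript, and with 1 Jak2WT and 2 aneurysm mice the groups were not compared. PIR-A/B, paired immunoglobulin-like receptors, gave 44.2 ± 13.8, close to 42.1 ± 9.3 in cDC2, and Ly6C gave 15.2 ± 4.4.

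cDC1, which cross-present antigen, had at least 10 cells in mice 2, 6, 7 and 9. XCR1, the chemokine receptor that defines them (Xcr1, chr9:123852315-123862029, - strand), gave 12.9, 12.5, 15.4 and 13.4 counts per cell. CD103, the integrin alpha chain that binds E-cadherin, gave 59.5, 57.8, 71.8 and 27.3, and its partner ITGB7 68.8, 65.3, 84.6 and 45.4. CD103 and ITGB7 were lowest in the same mouse, mouse 9. CD24, a small glycosylated surface protein (Cd24a, chr10:43578284-43584265, + strand), gave 488, 220, 372 and 608. TIM4 gave 44.8, 22.9, 39.8 and 22.7. CD11c, the integrin chain used to gate dendritic cells, gave 69.0 ± 14.8, the adhesion ligand CD54 43.1 ± 5.8, the peptidase CD26 14.8 ± 2.9 and the integrin chain CD49d 12.6 ± 2.5. JAML, an adhesion molecule, gave 21.2 ± 3.5 in cDC1 and 20.1 ± 4.5 in gd T cells, which differed by less than the spread between mice. cDC2 were highest for MHC class II (I-A/I-E) at 775 ± 133, the activating receptor CD226 at 43.1 ± 15.9 and the lectin MGL2 at 7.48 ± 6.47.

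Among lymphocytes, the antibodies to the T cell receptors were highest in their own lineage. CD55, which limits complement activation, was highest in B cells, at 106.6 ± 8.9. T cells were highest for CD5, a negative regulator of receptor signalling, at 159 ± 31, for L-selectin (CD62L) at 16.8 ± 4.4 and for TCRb at 8.39 ± 1.69. NK1.1 gave 26.8 and 44.9 in the NK cells of mice 7 and 10, the mice with enough of them, and NK cells were also highest for TIGIT, an inhibitory receptor, at 0.195 counts per cell. TCRgd gave 2.82, 6.34, 6.84 and 7.18 in the gd T cells of mice 2, 7, 9 and 10, with Trdc at 1278 CPM. gd T cells were also highest for CD3 (7.63 ± 1.79), the IL-7 receptor chain CD127 (4.37 ± 0.60) and the costimulatory receptor CD278 (1.49 ± 0.55). All levels of gd T cells are those of the whole cluster, in which 61.0% of cells bound TCRgd. Thymocytes were highest for both co-receptors: CD4 gave 22.0, 23.7, 23.8 and 24.6 and CD8a 30.2, 36.4, 37.5 and 34.2 in mice 3, 6, 9 and 10. T cells, a mixture of CD4 and CD8 cells, had 16.0 ± 3.6 CD4 and 14.8 ± 3.5 CD8a counts per cell.

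The 12 antibodies that did not exceed the isotype controls in any type included several whose transcript was abundant. CD115, the receptor for macrophage colony-stimulating factor, gave 0.25 ± 0.098 counts per macrophage although Csf1r was at 1119 ± 147 CPM. Sca-1, with Ly6a at 523 CPM in B cells, had no antibody count in any kept cell, so its row cannot be read as a lack of surface protein. Mac2 (galectin-3), whose Lgals3 transcript reached 1352 CPM in cDC2, behaved in the same way as CD115, as did the scavenger receptor MSR1, with Msr1 at 387 CPM in Saa3 myeloid cells. So did the chemokine receptors CCR2, with Ccr2 at 780 CPM in gd T cells, and CXCR5, with Cxcr5 at 160 CPM in B cells. CD300c/d had target transcripts at 674 CPM in neutrophils, CD137 had Tnfrsf9 at 104 CPM in NK cells, CD135 had Flt3 at 88.5 CPM in cDC1, CD21/35 had Cr2 at 62.8 CPM in B cells and CCR3 had Ccr3 at 4.03 CPM at its highest. For most of the 12, the transcript was thus counted in a type in which the antibody did not exceed the isotype controls in every mouse.

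For the 59 others, the type with the highest antibody was also the type with the highest transcript in 34. The Spearman rho across the 12 types had a median of 0.699 and ran from -0.420 to 0.951, with 29 antibodies above 0.7 and 3 below 0. It is a description over 12 points that share the pool and the depth of each type. Both the shared top types and rho set antibody counts per cell against CPM, a share of transcripts that is scaled for depth. The 10 highest were CD14 (0.951), CD68 and PIR-A/B (0.944 each), I-A/I-E (0.930), CD55 (0.909), TIM4 (0.890), Siglec-F (0.889), CD127 (0.860), JAML (0.859) and CD62L (0.853). The lowest included CD47 (-0.420), CD178 (-0.182), XCR1 (-0.145), TCRgd (0.0423), CXCR4 (0.0559), Siglec-H (0.181), CD137L (0.217), IL1RL1 (0.301) and FceRIa (0.381).

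A low rho had different forms. XCR1, TCRgd, FceRIa and IL1RL1 were each highest in the type that also held the most transcript. Their second types had only 0.709, 0.702, 1.44 and 1.08 counts per cell. For IL1RL1 the second type was ILC2, which were also second by transcript, at 826 CPM. CD47, the signal that restrains phagocytosis, ran from 0.309 counts per T cell to 2.92 per mast cell while Cd47 lay between 217 and 638 CPM in all types. CD178 (Fas ligand) was lowest at 0.392 per NK cell (mice 7 and 10), where Fasl was highest at 370 CPM. It was highest at 2.14 per cDC1 (0.727 to 3.26 over mice 2, 6, 7 and 9), where no Fasl was counted. Only mouse 7 gave both types, so type and mouse were not separated in this contrast. CD24, with a rho of 0.725, was among the antibodies that followed their transcript in rank, but single types stood apart: macrophages had 55.2 CD24 counts per cell with 5.02 CPM of Cd24a, thymocytes 42 with 870 CPM, and cDC1 422 with 452 CPM. Only the CPM are scaled for depth, and the median depth was 10545 UMIs in macrophages, 3342 in thymocytes and 18025 in cDC1. The part of depth in these contrasts was not tested.

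**Figure D2:**
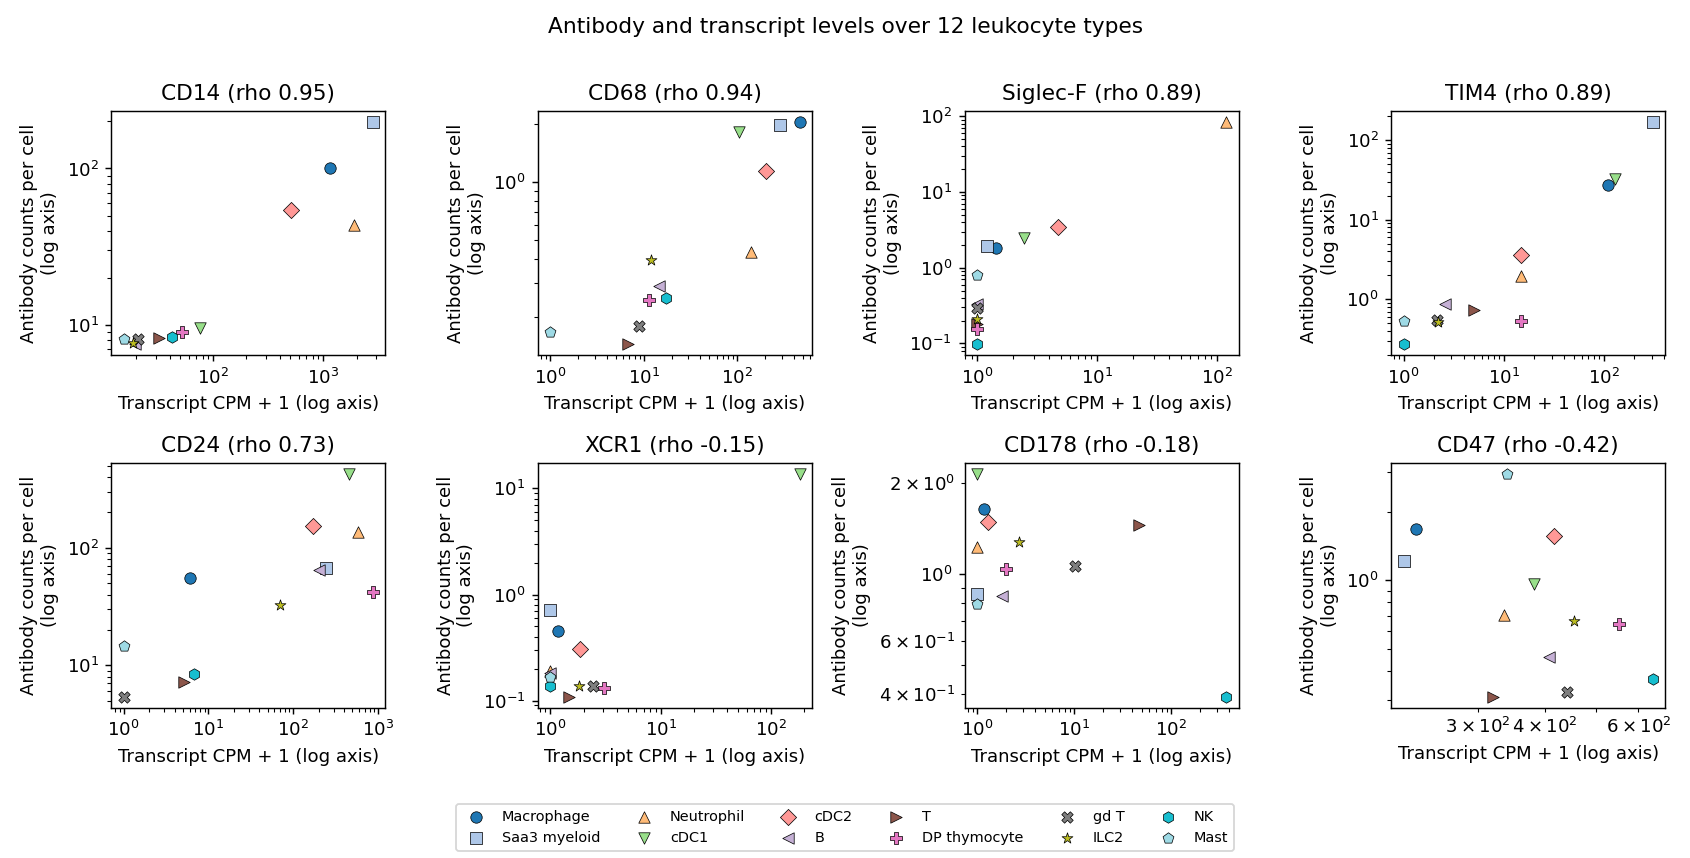
Antibody counts per cell against transcript CPM + 1 of the target, both on log axes, for CD14, CD68, Siglec-F, TIM4, CD24, XCR1, CD178 and CD47, with 1 point per leukocyte type (mean over mice). CD14, CD68, Siglec-F and TIM4 rise with the transcript (rho 0.951, 0.944, 0.889 and 0.890), XCR1 has a single high type, and CD47 and CD178 do not rise.

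The panel was then read cell by cell, which asks whether cells that bind an antibody hold its transcript. A cell was called positive above the 99th percentile of a reference type, B cells for the T and NK antibodies. The reference type was chosen to lack the protein, but for CD5 it was not free of counts. Transcripts were thinned to 2000 UMIs per cell, so that depth was equal. Among T cells, 190 of 405 (46.9%, 25 to 60% over mice) were CD4 positive, and 22.0% of these had a Cd4 UMI against 0 of 207 negative cells, which allows a share of up to 1.45%. The Cd4 share in B cells, which should lack it, was 0.187%. CD8a was bound by 177 T cells (43.7%), of which 45.5% had a Cd8a UMI, against 0 of 217 negative cells, which allows up to 1.38%, and 0.749% of B cells. Median depths before thinning were 7688 UMIs in T cells and 5390 in B cells.

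Other lymphocyte antibodies separated cells less sharply by transcript. CD3 was bound by 282 T cells (69.6%, 50 to 96.2% over mice), but 96.8% of positive and 96.5% of negative T cells held a Cd3 UMI, and 2.81% of B cells did. TCRb was bound by 359 T cells (88.6%), with Trbc UMIs in 93.5% of positive and 85.0% of negative cells. CD5 was bound by 331 T cells (81.7%), with a Cd5 UMI in 25.8% of positive and 7.35% of negative cells. Its threshold was 55.4 counts, against 2 for CD3 and 1 for TCRb, and B cells had up to 11.2 CD5 counts per cell in a mouse. The CD5 shares depend on this high threshold. A T cell below the CD3 or TCRb threshold was therefore usually a cell with the transcript. Thymocytes showed this most: 5.91% were CD3 positive and 25.1% TCRb positive, while 99.3% of those deep enough for thinning held a Cd3 UMI.

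In NK cells, all 76 were NK1.1 positive and 75.0% held a Klrb1c UMI. A further 37 T cells (9.14%) were NK1.1 positive, of which 37.5% held a Klrb1c UMI, against 0 of 361 negative T cells, which allows up to 0.831%. In macrophages, 334 cells (18.9%, 2.63 to 36.8% over mice) passed the NK1.1 threshold, and 0 of the 330 deep enough for thinning held the transcript, which allows up to 0.909%. For TCRgd, 143 macrophages (8.11%) passed and 0 of 142 held Trdc, which allows up to 2.11%. Macrophages had more isotype counts than the B cells that set these thresholds (0.799 against 0.211 per cell). CD4 was passed by 214 macrophages (12.1%), with a Cd4 UMI in 6.10% of them and in 0.587% of the others. The median depth was 10545 UMIs in macrophages, 7385.5 in gd T cells and 7644.5 in NK cells.

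**Figure D3:**
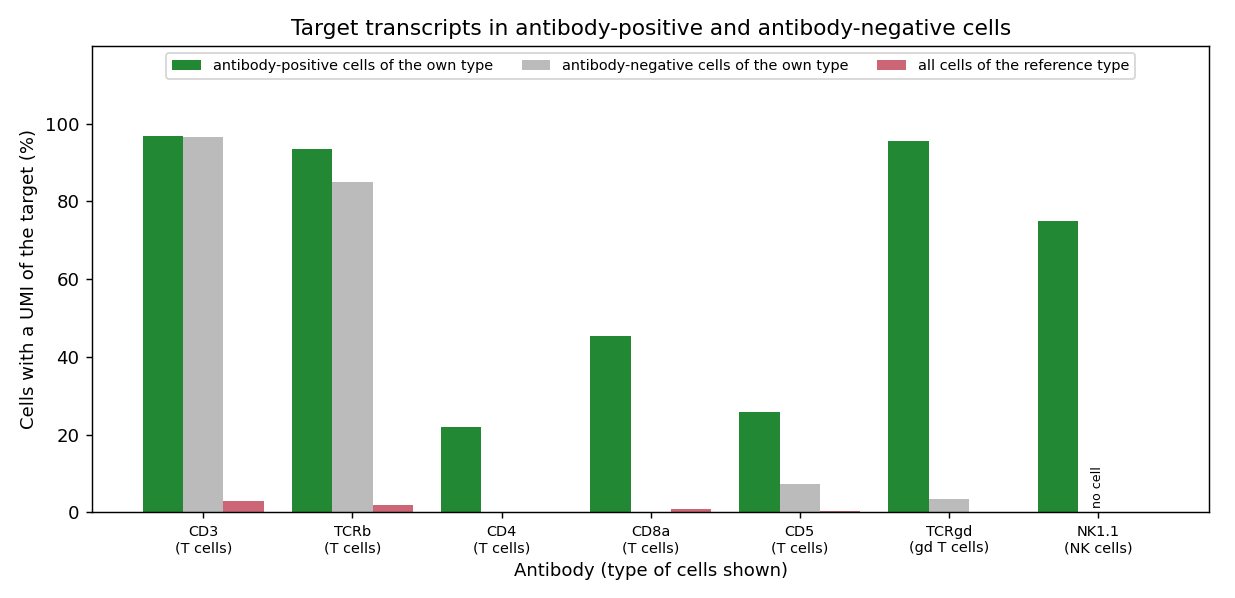
Percent of cells with a UMI of the target after thinning to 2000 UMIs, in antibody-positive cells, antibody-negative cells and the reference type, for CD3, TCRb, CD4, CD8a, CD5, TCRgd and NK1.1. For CD4 and CD8a the bars stand at 22.0% and 45.5% in positive and at 0 in negative T cells, while for CD3 positive and negative cells stand at 96.8% and 96.5%.

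The co-receptor antibodies fell on separate T cells and together on thymocytes. Of 405 T cells, 189 bound CD4 alone (46.7%), 176 CD8a alone (43.5%), 1 both and 39 neither, and 70.9% of the CD8a cells held Cd8b1, a gene that no panel antibody targets. Of 203 thymocytes by transcript, 190 bound both (93.6%, 89.7 to 97.1% over mice), 8 CD4 alone, 1 CD8a alone and 4 neither. In the cells that bound both, 60.9% held Cd4, 77.4% Cd8a and 92.5% Cd8b1, at a median depth of all thymocytes of 3342 UMIs. Cd8b1 was among the markers that named the thymocyte cluster, so its share in thymocytes is in part set by the gate. Double-positive cells are a developmental stage of the thymus, and here the antibodies gave both co-receptors in the same cells. Cd4 and Cd8a UMIs were counted separately, and their presence together in a cell was not counted.

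The cluster of gd T cells of the IL-17 type held 2 kinds of cell by antibody. TCRgd was bound by 94 of 154 cells (61.0%), and Trdc was held by 95.6% of these and 3.33% of the rest. TCRgd alone marked 93 cells from 9 mice (60.4%) and TCRb alone marked 42 cells from 8 mice (27.3%), with 1 cell binding both and 18 neither. Trdc was held by 96.7% of the TCRgd cells and 2.38% of the TCRb cells, Trac by 6.67% and 47.6%, Trbc, the target of the TCRb antibody, by 87.8% and 85.7%, and Cd163l1, a marker of IL-17 gd T cells, by 84.4% and 0%. CD3 was at 12.5 counts per TCRgd cell and 2.10 per TCRb cell, CD5 at 50.1 and 97.8, and CD103 at 18.9 and 34.3. These last values pool cells over mice and carry no test. Cd163l1 was among the markers that named this cluster, so its share is in part set by the gate, and its 0% is of 42 cells.

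Resident macrophages, named from Lyve1, Folr2 and related transcripts, were then set against inflammatory macrophages, named from Spp1, Il1b and related transcripts, within the same mice. There were 731 resident and 483 inflammatory macrophages. A further 448 macrophages in unnamed clusters, 74 interferon macrophages and 27 monocytes were in neither class. Counted per cell, TIM4, CD163 and MGL1 were higher on resident and CD11c, CD9, MHC class II and CD14 on inflammatory macrophages. Both classes had at least 10 cells in mice 2, 6, 7, 9 and 10, with 11, 10, 235, 193 and 18 inflammatory macrophages. By edgeR's quasi-likelihood F test on counts per cell, with the mouse as a block and Benjamini-Hochberg adjustment over 73 rows, 50.7% of rows passed 0.05. Of 70 members with counts, 27 were higher and 7 lower in resident macrophages, with a median log2 difference of 0.62. The isotype controls also moved: 3 were higher in resident macrophages, the hamster control at 0.623 against 0.221 counts per cell (log2 1.43, adjusted p = 0.00276), rat IgG1 at 0.486 against 0.240 (1.00, 0.0472) and rat IgG2b at 0.153 against 0.0360 (1.27, 0.0472). After TMM scaling, which sets the typical antibody equal, 10 members were higher and 11 lower, and after scaling by the isotype sum 2 were higher and 14 lower, so the split between directions was set by the scaling.

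TIM4 gave 42, 51.7, 42.5, 42 and 47.7 counts per resident macrophage in mice 2, 6, 7, 9 and 10, and 2.00, 1.1, 1.23, 1.77 and 1.83 per inflammatory macrophage. The log2 difference was 4.84 (SE 0.27, adjusted p = 1.07e-16, edgeR), and Timd4 was at 171 ± 36 against 2.82 ± 3.49 CPM. CD163 gave 676, 971, 846, 1121 and 898 against 99.6, 69.3, 48.6, 60.2 and 67.8, a log2 difference of 3.73 (SE 0.24, adjusted p = 2.19e-15, edgeR), with Cd163 at 1464 against 156 CPM. Every mouse was far apart between the classes for both TIM4 and CD163. MGL1 gave 2.71, 6.36, 4.79, 4.44 and 5.49 against 0.727, 0.900, 1.01, 0.746 and 0.611, a log2 difference of 2.54 (SE 0.30, adjusted p = 1.14e-08, edgeR), with Clec10a at 355 against 66.2 CPM. CD169 was higher by 2.15 on the log2 scale (SE 0.28), at 8.34 against 1.90 counts per cell, with Siglec1 at 24.0 against 11.1 CPM. With scaling by the isotype sum only 2 members of the panel were called higher, so TIM4, CD163, MGL1 and CD169 did not all keep their calls.

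CD63, CD40 and CD95 were higher on resident macrophages with little difference in transcript. CD63 was higher by 1.87 on the log2 scale (SE 0.27, 10.1 against 2.71 counts per cell) with Cd63 at 707 against 656 CPM. CD40 was higher by 1.57 (SE 0.29, 4.14 against 1.41) with Cd40 at 25.0 against 31.4 CPM, and only 2 of 5 mice had more transcript in resident cells. CD95 was higher by 1.46 (SE 0.28, 4.75 against 1.73) with Fas at 18.1 against 16.3 CPM. The isotype controls differed by 1.00 to 1.43 on the same scale, and their part in these differences was not tested. IL1RL1 (log2 1.65), CD55 (1.45) and CXCR5 (1.48), which was not above the isotype controls in any type, complete the 10 most raised. Unlike CD63, CD40 and CD95, the transcripts of the first 2 were also higher, Il1rl1 at 28.1 against 10.8 CPM in 5 of 5 mice and Cd55 at 6.36 against 1.26 CPM in 4 of 5. Over all macrophages, however, IL1RL1 was at 0.155 counts per cell, below the hamster (0.390) and rat IgG1 (0.326) controls. The part of background in its difference was not tested. Per cell, SIRPa was higher by 0.62 on resident macrophages (24.8 against 16.4 counts per cell) while Sirpa was lower in all 5 mice (212 against 293 CPM). The SIRPa difference was no larger than the median over all members (0.62) and lay below those of the isotype controls. Whether SIRPa differed beyond this general shift was not tested.

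CD11c was the antibody most raised on inflammatory macrophages. It gave 0.956, 0.781, 1.48, 1.29 and 1.42 counts per resident and 45.3, 3.10, 13.8, 30.3 and 27.5 per inflammatory macrophage, a log2 difference of -3.98 (SE 0.35, adjusted p = 1.91e-11, edgeR), with Itgax at 0.978 against 62.0 CPM. The classes did not overlap, and mouse 6, with 10 inflammatory cells, was lowest. CD9 was at 16.6 in resident against 61.3 in inflammatory macrophages (log2 -2.01, SE 0.24, adjusted p = 1.44e-08, edgeR), with Cd9 (chr6:125460266-125494791, - strand) at 86.4 against 442 CPM. I-A/I-E was at 231 against 560 (-1.28, SE 0.20), CD14 at 78.3 against 191 (-1.25, SE 0.21) with Cd14 at 550 against 2372 CPM, and CX3CR1 at 3.79 against 7.81 (-0.98, SE 0.25) with Cx3cr1 at 16.8 against 346 CPM. CD300c/d (-0.90), not above the isotype controls, and CD5 (-0.79) complete the 7. These 7 moved against the direction of the isotype controls.

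**Figure D4:**
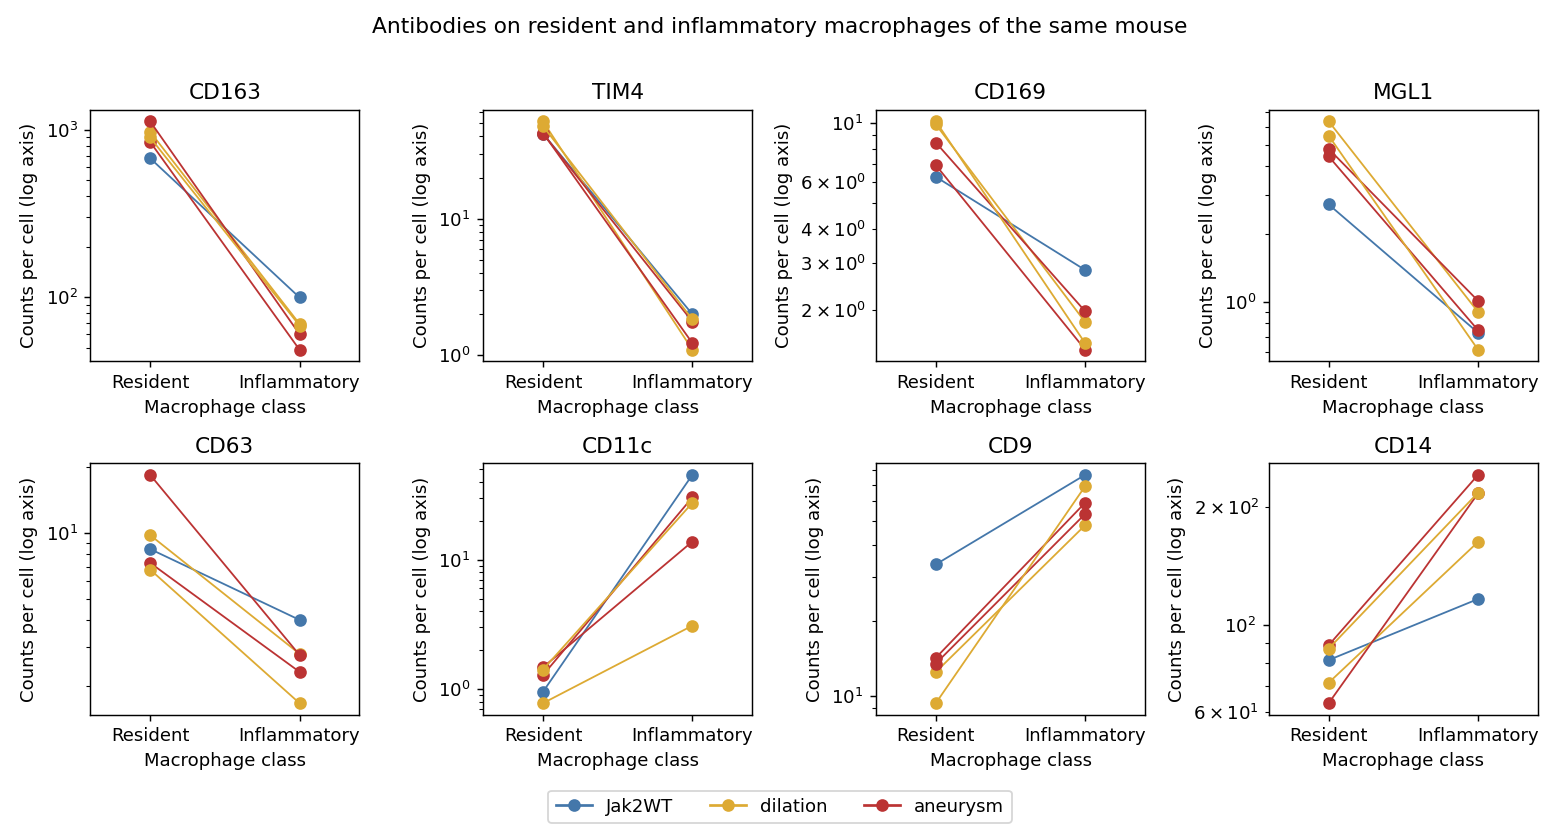
Counts per cell (log axis) of CD163, TIM4, CD169, MGL1, CD63, CD11c, CD9 and CD14 in resident and inflammatory macrophages, with a line for each of the 5 mice that hold both classes, coloured by group. TIM4 falls from 42 to 51.7 in resident to 1.1 to 2 counts per cell in inflammatory macrophages, and CD11c rises in every mouse.

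B cells and T cells, compared in 9 mice, differed for the antibodies of their lineages (39.7% of 73 rows passed, edgeR). Among the members 11 were higher and 18 lower in B cells. I-A/I-E gave a lowest, median and highest of 193, 302 and 400 counts per B cell and 5.99, 9.44 and 19.9 per T cell (log2 4.87, SE 0.36) and CD40 gave 1.96, 3.08 and 3.51 against 0.0778, 0.115 and 0.261 (4.22, SE 0.24). MHC class II and CD40 serve the B cell in its contact with helper T cells, and neither overlapped between the types. CD24 (log2 3.05), PIR-A/B (2.64), CD55 (2.51), CD80 (1.59), CD49d (1.21) and SIRPa (0.88) were also higher in B cells. CD21/35, the complement receptor of B cells, was higher by 1.95, at 0.373 against 0.0929 counts per cell, with Cr2 at 62.8 against 0.546 CPM.

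The antibodies higher on T cells were led by TCRb, with 6.06, 7.62 and 9.75 counts per T cell and 0, 0.0521 and 0.170 per B cell (log2 -6.83, SE 0.31). CD4 (-6.66), CD8a (-5.73), CD5 (-5.69) and CD3 (-5.60) followed. CD5 gave 103, 167 and 188 per T cell and 0.833, 1.89 and 11.2 per B cell. CD127 (-5.03), the integrin chain CD103 (-5.01), CD226 (-4.27), CD43 (-3.57) and Ly6C (-2.61) complete the 10 most raised on T cells. When 36 B cells with macrophage transcripts, left out of the B cells, were kept, 23 members were higher and 13 lower.

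cDC1 and cDC2, compared in 6 mice with at least 5 cells of each, differed by integrins and lectins (37% of 73 rows passed, edgeR; 9 members higher and 18 lower in cDC1). CD103 gave a lowest, median and highest of 6.67, 42.5 and 71.8 counts per cDC1 and 0.120, 0.273 and 0.594 per cDC2 (log2 6.74, SE 0.53, adjusted p = 1.76e-09, edgeR). XCR1 gave 12.5, 14.4 and 21.4 against 0.200, 0.292 and 0.400 (5.67, SE 0.38). Neither overlapped between the types. ITGB7 was higher by 4.41, CD24 by 2.24, CD117 by 2.40, JAML by 1.59, CD26 by 1.45 and CD54 by 0.69, the last with Icam1 higher in cDC1 in only 1 of 6 mice. TIM4 was higher by 2.87 (SE 0.66), at 2.50, 26.4 and 44.8 against 1.15, 3.59 and 9.08 counts per cell, in 5 of 6 mice, and Timd4 was at 109 against 17.5 CPM. TIM4 is usually read as a macrophage antigen, and here both antibody and transcript were found on cDC1.

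On cDC2, CD11b gave 250, 423 and 481 counts per cell against 15.3, 21.5 and 70.4 per cDC1 (log2 -3.89, SE 0.29). SIRPa (-3.44) and MGL2 (-3.18; 2.8, 9.41 and 20.7 against 0.643, 1.01 and 1.20) followed, and all 3 are used to gate cDC2. CD14 (-2.52), CD137L (-2.38), F4/80 (-2.19), MGL1 (-1.93), CD40 (-1.81) and CXCR4 (-1.79) were also lower on cDC1, as was CCR2 (-2.34), at 0.0292 against 0.194 counts per cell, an antibody that was not above the isotype controls in any type. I-A/I-E was lower on cDC1 by 0.81 on the log2 scale (SE 0.23) while its transcripts were at 27429 against 28670 CPM. The isotype sum was higher on cDC2 in 3 of the 4 mice with at least 10 cells of both (0.398 against 0.545 on cDC1 in mouse 7), and its part in these differences was not tested. At a clustering resolution of 0.5, which gave 203 cDC2 and a separate unnamed cluster of 164 cells led by Ear2 and Hr, genes that also lead the cDC2 cluster used here, 10 members were higher and 6 lower in cDC1.

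ILC2 and T cells, compared in 9 mice, differed for receptors of alarmins and of antigen (32.9% of 73 rows passed, edgeR; 10 members higher and 14 lower in ILC2). IL1RL1 gave a lowest, median and highest of 0.545, 1.05 and 1.4 counts per ILC2 and 0, 0.0435 and 0.0968 per T cell (log2 4.58, SE 0.37, adjusted p = 1.39e-07, edgeR), with Il1rl1 at 826 against 15 CPM. CD137L (CD137 ligand) gave 0.545, 1.09 and 1.62 against 0, 0.182 and 0.312 (2.83), and CD44 71.1, 88.6 and 107 against 8.27, 17.8 and 36.5 (2.41). None of the 3 overlapped between the types. CD117 (2.50; Kit 136 against 2.51 CPM), CD24 (1.93), CD9 (1.35), CD127 (1.35; 2.92 against 1.11 counts per cell), CD49d (1.14) and CD47 (1.00) were higher, and CD169 was higher by 1.43 although no Siglec1 was counted in ILC2.

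CD62L, which takes naive lymphocytes into lymph nodes, was lowest on ILC2: 0, 0.133 and 0.212 counts per cell against 10.8, 15.7 and 23.9 per T cell (log2 -6.92, SE 0.37, adjusted p = 1.29e-09, edgeR). CD8a (-6.66), CD5 (-6.43), TCRb (-5.39), CD4 (-5.37), CD103 (-4.84), CD3 (-3.58), CD55 (-3.12), CD26 (-2.47) and Ly6C (-2.37) followed. TCRb was at 0.406 counts per ILC2 and 8.03 per T cell, while the Trbc transcripts were at 706 against 1679 CPM, so ILC2 held constant-region transcripts with little receptor on the surface.

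Between genotypes, the isotype controls differed before any member was read. The summed isotype counts were 0.452 ± 0.113 per cell in Jak2WT and 0.684 ± 0.076 in Jak2V617F Myel mice (SD, n = 5 each, two-sided exact permutation p = 0.0159). In macrophages they were 0.584 ± 0.092 (0.513 to 0.737) against 1.01 ± 0.23 (0.807 to 1.39), p = 0.0079 by the same exact test, the smallest it can give. Within resident macrophages they were 0.603, 0.756, 0.432, 0.379 and 0.539 in mice 1 to 5 and 1.66, 1.66, 1.27, 1.28 and 0.963 in mice 6 to 10, again with no overlap. Nonspecific binding, the well of staining and genotype cannot be told apart here. The median panel count per cell was 888 ± 225 against 1018 ± 129 (exact permutation p = 0.317), and in macrophages it was 1424 against 1498 (exact permutation p = 0.571).

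For the members, sums per mouse were TMM-scaled and compared within each type by edgeR. Antibodies were called only in cDC2, where 3 of 49 rows passed (6.12%). At resolution 0.5, with its separate cluster of 164 unnamed cells, the 203 cDC2 gave no comparison of genotypes, so these calls were not checked there. MGL2 (Mgl2, chr11:70130329-70137550, + strand), a lectin, gave 2.93, 2.8, 1.82 and 2.32 counts per cDC2 in Jak2WT mice 1, 2, 4 and 5 and 12.9, 20.7, 5.03, 6.48 and 12.3 in mice 6 to 10 (log2 1.78, SE 0.44, adjusted p = 0.0355). The genotypes did not overlap. Mgl2 was at 544, 408, 331 and 281 against 700, 819, 534, 569 and 603 CPM, and the transcript was not called.

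CD24 gave 217, 91.3, 417 and 148 counts per cDC2 in the Jak2WT mice and 87.6, 86.0, 143, 66.1 and 118 in the mutant mice (log2 -1.53, SE 0.33, adjusted p = 0.0355, edgeR). CD9 gave 47.1, 27.6, 40.6 and 22.3 against 29.2, 25.3, 14.7, 12 and 18.4 (log2 -1.17, SE 0.29, adjusted p = 0.0355, edgeR). Both overlapped between the genotypes. With library size set to the number of cells, MGL2 kept its call (log2 2.21, adjusted p = 0.00756) and CD24 (-1.12, 0.0640) and CD9 (-0.79, 0.112) lost it. With scaling by the isotype sum, MGL2 lost its call (1.52, 0.0725) and CD24 (-1.70) and CD9 (-1.4) were called (0.0378 each). MGL2 was also not called with MULTIseqDemux (1.41, 0.0556), and CD9 not with target genes kept in the clustering (-1.16, 0.0545). Leaving out mouse 1, 4, 7, 9 or 10 ended the calls of all 3, leaving out mouse 6 those of MGL2 and CD24, and leaving out mouse 2 or 5 that of MGL2, with adjusted p of up to 0.114 and no change of direction.

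In the other 5 groups of cells tested, 0 antibodies were called by edgeR, with 9 at an unadjusted p under 0.05 in macrophages, 11 in resident macrophages, 2 in B cells, 4 in T cells and 3 in ILC2. DESeq2 called 1 in macrophages, 7 in resident macrophages and 1 in T cells. In resident macrophages the result turned with the scaling: per cell 28 antibodies were called higher and 0 lower in mutant mice, scaled by the isotype sum 0 higher and 30 lower. The lowest adjusted p under TMM was 0.0958, shared by CD9 (log2 -0.96), Siglec-F (0.85), I-A/I-E (-1.23), CD54 (-0.54), CD137L (0.81), CD40 (0.67) and CD24 (-1.64). In all macrophages 15 were called higher and 0 lower per cell.

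The study names 5 antibodies, MGL1, CD95, CD178, CD40 and JAML, as higher on its MGL1-high subset of resident macrophages. That comparison of subsets was not made here, and the values that follow compare genotypes over all resident macrophages. CD40 gave 1.34, 3.09, 1.18, 2.45 and 1.76 counts per resident macrophage in mice 1 to 5 and 4.30, 4.55, 4.56, 4.25 and 4.51 in mice 6 to 10. The genotypes did not overlap, as for the isotype sum. CD95 gave 2.40, 3.78, 1.05, 2.14 and 2.00 against 3.95, 7.48, 4.07, 4.75 and 3.79, with TMM log2 0.56 (adjusted p = 0.255, edgeR). JAML gave 0.81, 1.16, 1.48, 0.69 and 1.07 against 3.21, 2.06, 2.32, 2.08 and 1.57, with TMM log2 0.56 (adjusted p = 0.255, edgeR). CD95 and JAML also did not overlap per cell, CD95 only by 3.78 in mouse 2 against 3.79 in mouse 10. Every antibody called per cell on resident macrophages was higher in mutant mice, and the share of the panel without overlap was not counted. The part of nonspecific binding in CD40, CD95 and JAML was not tested. MGL1 gave 2.43, 2.71, 5.48, 3.79 and 6.57 against 6.36, 4.79, 5.32, 4.44 and 5.49 (TMM log2 -0.26, adjusted p = 0.674, edgeR) and CD178 1.02, 1.64, 0.89, 2.03 and 0.79 against 4.03, 0.87, 0.70, 2.94 and 1.69 (0.20, 0.844), both with overlap.

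The target transcripts were tested in the same way over all genes. In resident macrophages 4 of 40 targets tested were called, where 2.21% of 6927 genes were. Icam1, which encodes the adhesion ligand CD54, was at 63.9, 80.5, 44.7, 186 and 86.7 CPM in mice 1 to 5 and 174, 302, 289, 178 and 238 in mice 6 to 10 (log2 1.43, SE 0.26, adjusted p = 0.00882, edgeR). The CD54 antibody did not follow: it gave 10.6, 9.93, 6.20, 8.72 and 6.67 against 7.18, 9.61, 7.36, 8.07 and 9.84 counts per cell, overlapping between genotypes (log2 -0.54). Lgals3 was higher by 0.99 (SE 0.20, adjusted p = 0.0133, edgeR). Cx3cr1 was lower (log2 -1.98, SE 0.47, adjusted p = 0.0357, edgeR), while its antibody was at log2 -0.32 (0.513). In the other types 0 target transcripts passed edgeR's test. At an unadjusted p under 0.05 were 9 of 49 in macrophages (958 of 8190 genes) and 8 of 44 in cDC2 (359 of 4296). In T cells they were 6 of 28 (238 of 3127), in ILC2 4 of 17 (110 of 1877) and in B cells 1 of 19 (143 of 3303). DESeq2 called 2 in macrophages and 1 in cDC2.

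Within the mutant mice, 4 antibodies differed on macrophages between aneurysm (mice 7 and 9) and dilation (mice 6, 8 and 10), 5.48% of 73 rows in the edgeR fit of the 3 groups. TIM4 gave 11.9 and 17.0 counts per macrophage in aneurysm and 40.5, 30.9 and 37.0 in dilation (log2 -1.33, SE 0.25, adjusted p = 0.00966), with 24.0 to 30.7 in Jak2WT mice. CD163 gave 266 and 520 against 758, 803 and 748 (-1.01, SE 0.20, 0.00966), with 347 to 528 in Jak2WT mice. Both TIM4 and CD163 were lower in each aneurysm mouse than in each dilation mouse. CD9 gave 43.5 and 33.2 against 15.3, 15.3 and 18.3 (1.29, SE 0.25, 0.00966), with 15.6 to 27.4 in Jak2WT mice, and CD14 163 and 169 against 89.3, 68.8 and 112 (0.91, SE 0.21, 0.0217), with 66.5 to 92.0. Neither CD9 nor CD14 overlapped between aneurysm and dilation.

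Inflammatory macrophages made up 64.9% of macrophages in mouse 7 and 50.4% in mouse 9, against 0 to 9.65% in the 8 other mice, and resident macrophages 18.5% and 31.1% against 39.5 to 63.0%. Within resident macrophages 0 antibodies were called by edgeR (5 at an unadjusted p under 0.05), and DESeq2 called Siglec-F. TIM4 was then 42.5 and 42 in aneurysm against 51.7, 40.7 and 47.7 counts per cell in dilation, and CD163 846 and 1121 against 971, 972 and 898. CD9 was 14.2 and 13.5 against 12.5, 10.9 and 9.37, and CD14 63.2 and 88.8 against 71.3, 58.9 and 87.0. Within this class 3 of the 4 overlapped and CD9 was slightly higher in aneurysm.

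**Figure D5:**
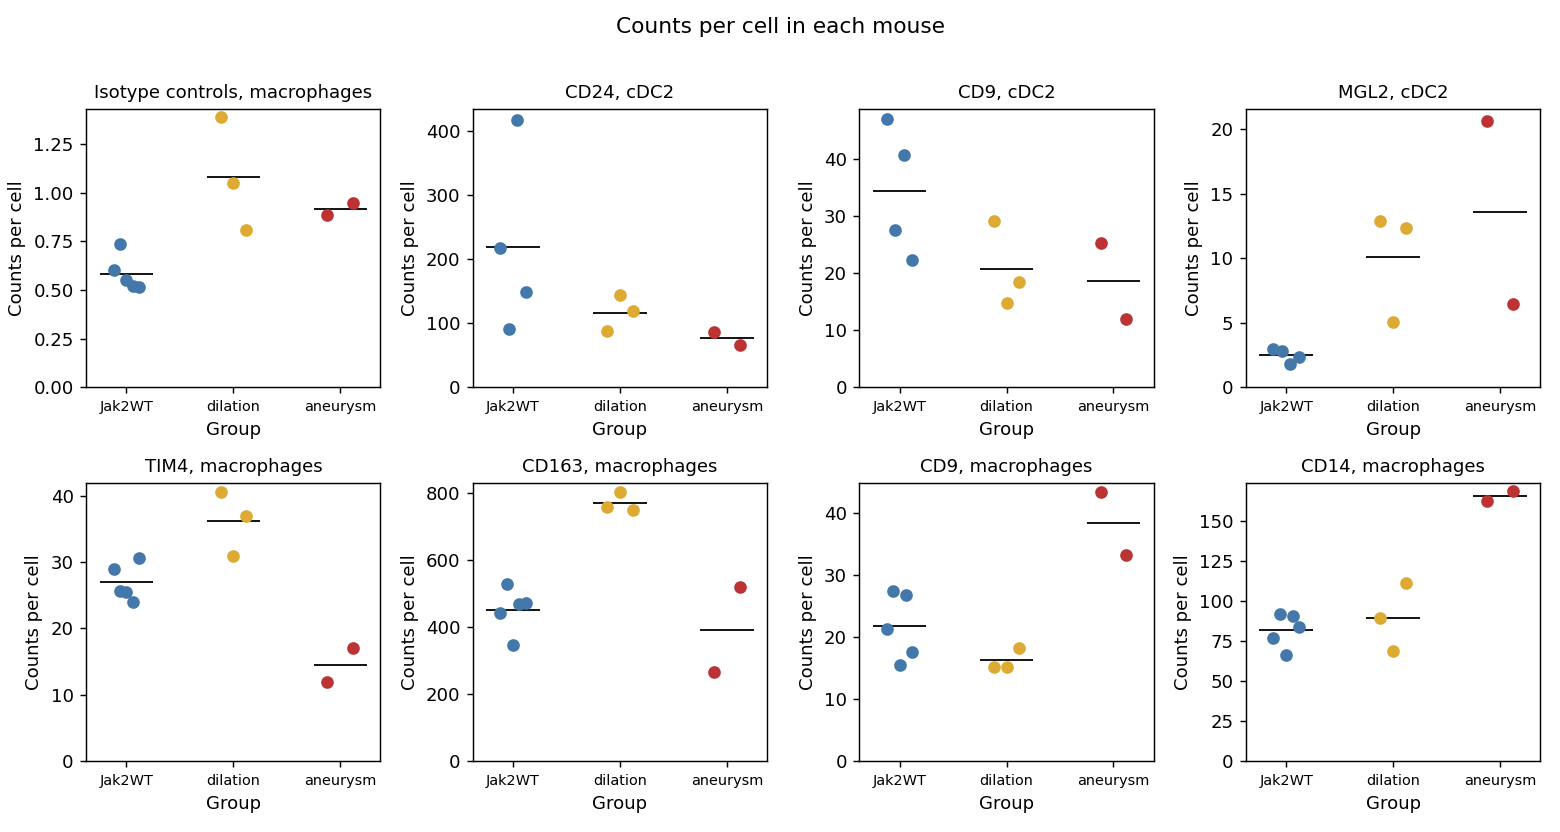
Values per mouse in the 3 groups (points; line, mean): isotype counts per macrophage, then counts per cDC2 of CD24, CD9 and MGL2, then counts per macrophage of TIM4, CD163, CD9 and CD14. Isotype counts reach 0.737 at most in Jak2WT and 0.807 at least in mutant mice, and TIM4 per macrophage is 11.9 and 17.0 in aneurysm against 30.9 to 40.5 in dilation.

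The macrophage calls rested on few mice: without aneurysm mouse 7, none of the 4 was called (TIM4 log2 -1.09, adjusted p = 0.167; CD9 1.02, 0.177; CD163 -0.57, 0.511; CD14 0.90, 0.177), and without Jak2WT mouse 1 CD163 (0.0820) and CD14 (0.071) were not. CD14 was also not called without mouse 3 (log2 0.57, 0.0985), 6 (0.0575) or 8 (0.110). Per cell, TIM4 and CD9 were called, and scaled by the isotype sum none was. In the other types 0 antibodies were called by edgeR (at an unadjusted p under 0.05, 2 in B cells, 4 in cDC2, 2 in ILC2 and 4 in T cells). Of 12 calls by DESeq2 over all types, 11 were in macrophages.

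The target transcripts of macrophages moved in the same directions. Between aneurysm and dilation 18 of 55 targets tested were called, where 10.1% of 9038 genes were. Timd4 (log2 -1.31), Cd163 (-1.26), Siglech (-1.39), Il1rl1 (-0.82), Clec10a (-0.80) and Nrp1 (-0.57) were lower in aneurysm. Itgax (2.74), Cx3cr1 (2.67), Ccr2 (2.21), Il7r (2.12), Cd9 (1.89), Cd300c2 (1.79), Tnfsf9 (1.74), Lgals3 (1.68), Cd24a (1.65), Cd14 (1.48), Cd80 (1.26) and Cd44 (1.1) were higher. The 4 called antibodies were thus each matched by a called transcript of the same direction, and 14 targets were called by transcript and not by antibody. In resident macrophages 0 of 42 targets were called by edgeR or by DESeq2 (3 at an unadjusted p under 0.05 in edgeR, where 317 of 7893 genes were).

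Between dilation and Jak2WT mice, which share these controls with the comparison of genotypes, 0 antibodies were called by edgeR in any of the 6 groups of cells, with 9 at an unadjusted p under 0.05 in cDC2, 7 in macrophages, 7 in resident macrophages, 6 in ILC2, 3 in T cells and 1 in B cells, and DESeq2 called 11. Per cell 19 antibodies were called over all types and scaled by the isotype sum 4. Target transcripts gave 0 calls by edgeR. At an unadjusted p under 0.05 were 13 of 42 in resident macrophages (811 of 7893 genes) and 12 of 55 in macrophages (724 of 9038). In cDC2 they were 11 of 50 (331 of 5049) and in T cells 3 of 37 (208 of 4109). In B cells they were 2 of 22 (185 of 4020) and in ILC2 1 of 20 (132 of 2465).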

How the data were processed

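The authors deposited a table of raw UMI counts per barcode for genes, antibodies and hashtags, made with Cell Ranger 6.0.2 on mm10; the submitters' processing notes name Seurat 3.0.0. These deposited counts were not normalised, and 0 columns of values per sample were left unused. The software used was Seurat 5.3.0, edgeR 4.0.16, DESeq2 1.42.0 and Matrix 1.6.5 under R 4.3.3. The members, lists, tests and named antibodies were chosen with earlier results of these data known.

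Barcodes were assigned to mice by HTODemux (quantile 0.99), which removes barcodes with several hashtags but no doublets within a mouse. Cells with up to 10% mitochondrial counts were clustered on 2000 variable genes without panel targets and T cell receptor genes (20 components, 20 neighbours, Louvain resolution 0.3), and clusters were named at a mean scaled marker score of at least 0.5 with 3 markers detected in 10% of cells. Macrophages were clustered again at resolution 0.8. Chosen after the clusters were seen were the lower score of 0.25 for macrophage classes, an unnamed cluster of 349 low-RNA cells, and 36 B cells with macrophage transcripts left out. Gene positions are from GENCODE vM21.

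Counts were summed per mouse and type (at least 10 cells, 5 for cDC1 and cDC2). Types were compared by edgeR's quasi-likelihood test with the mouse as a block, since both sums come from the same animal, and the number of cells as library size. Groups were compared with filterByExpr and TMM, without a block. The Benjamini-Hochberg threshold was 0.05, and each SE was taken as the size of the log2 difference divided by the square root of F. Tests were checked on simulated data. Named are the antibodies with a usual type, up to 10 called antibodies in each direction, the 10 highest and lowest rho, and 5 that the study names. Other scalings, filters, demultiplexing, resolutions, thresholds and left-out mice were tried. A share of 0 carries the limit that 3 counts give. Flow cytometry and bulk data were not analysed here. Values of 2 members and their targets are not reported here, and both stay in the counts and fits.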

Additional observations from a re-analysis of the deposited data

Results flagged for a closer look

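Of 54 groups of mice in which counts per cell were examined, 2 held a mouse far from the others of its group, and chance flags about 1 in 20 groups. Both were Jak2WT mouse 4, which had 11 T cells and 11 cDC2. CD5 was at 200.2 counts per T cell in this mouse against 160.8 to 168.5 in the other Jak2WT mice. CD300c/d, which did not exceed the isotype controls in any type, was at 0.818 counts per cDC2 against 0.0909 to 0.133.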

How the results depend on the processing

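Leaving out each mouse in turn gave 59 to 62 antibodies above the isotype controls, 26 to 27 in their usual type and 31 to 35 with a shared top type. Called antibodies ranged from 22 to 33 between resident and inflammatory macrophages, 26 to 30 between B and T cells, 20 to 26 between cDC1 and cDC2 and 23 to 25 between ILC2 and T cells. They ranged from 0 to 4 for genotype, 2 to 7 for aneurysm against dilation (where a lone aneurysm mouse is assumed to vary like the other groups) and 0 to 3 for dilation against Jak2WT, and target transcripts from 3 to 5 for genotype and 11 to 19 for aneurysm. Between resident and inflammatory macrophages 34 members were called, against 21 with TMM, 16 with isotype scaling, 21 with target genes kept in the clustering and, with only 2 of the 5 mice left, 9 at 5% mitochondrial counts and 8 at a class score of at least 0.3 (the last chosen after seeing the data). Without the replicate block, in which the mouse pairs both sums, 26, 30, 25 and 29 members were called in the 4 comparisons of types, in the order above. At resolution 0.5, 16 were called between cDC1 and cDC2, 10 higher and 6 lower, and cDC2 gave no comparison of genotypes. For genotype, 3 antibodies were called, against 46 per cell, 32 with isotype scaling, 13 with DESeq2, 5 in the fit of 3 groups and 5 at 5% mitochondrial counts. For aneurysm the 4 became 2 per cell, 0 with isotype scaling and 12 with DESeq2, and for dilation the 0 became 19, 4 and 11. Target transcripts for genotype were 4, against 7 with DESeq2 and 23 with no filter on low counts, and for aneurysm 18, against 45 with no filter (for aneurysm chosen after seeing the data). Without thinning, the share of positive cells with the transcript was 99.6% for CD3, 98.6% for TCRb, 61.1% for CD4, 88.1% for CD8a, 52.3% for CD5 and 100% for NK1.1. The cause of these shifts was not tested, apart from thinning, which lowers depth, and the settings with 2 mice, which hold fewer samples. Direction was checked for up to 10 called antibodies per direction in each comparison of types and for the values called between groups. None of these reversed under the alternatives run. The other antibodies called between types were not checked. Between resident and inflammatory macrophages, the median log2 difference of the members went from 0.62 to -0.754 with isotype scaling. Antibodies not called in the reported fits could reverse: between genotypes on resident macrophages, CD11b, CD49d, CD47, CD304 and CD39 were called higher per cell and lower with isotype scaling. Isotype scaling could not be fitted for cDC1 against cDC2 or for ILC2, where a sum held no isotype count. Values under 1 count per cell in types of under 100 cells rest on few counts.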
